A study of Mus musculus with 8 samples.

Results

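The 9 genes described here, Isg15, Usp18, Oas1a, Oasl2, Bst2, Zbp1, Ifih1, Stat2 and Irf7, are type I interferon stimulated genes, taken by symbol from the deposited expression table, where all 9 were found among 12701 genes. Expression was measured by RNA sequencing of lung tissue-resident (alveolar) macrophages, the phagocytes that live in the airspaces, sorted from C57BL/6 mice. The 3 d35 libraries and the 2 d15 libraries came from mice whose lungs carried KP tumors, labelled as taken 35 and 15 days after KP or KP-GFP cells, a mouse lung tumor line without or with a green fluorescent marker, were given through the tail vein, and the 3 naive libraries came from mice without a tumor. Which of the KP lines a library's mouse received is not stated, and the growth protocol names a harvest period of 15 to 30 days, which ends before the d35 label. The tumors were seeded from the blood by a transplanted line, no other treatment or allele of the mice is given, and the sorting gate is not given. No label says if the replicates of a group are different animals, so a p-value here reflects library-to-library spread that may be technical. Each library started from 20000 sorted cells and 1 ng of RNA.

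Type I interferons bind a receptor shared by nearly all nucleated cells, whose kinases activate STAT2. STAT2 acts with IRF9 in a complex that binds the interferon-stimulated response element (ISRE) in front of its target genes. The targets include sensors and transcription factors that feed back on interferon production, effectors that restrict viruses, and inhibitors that end the signal. In the lung, alveolar macrophages are known as a source of type I interferon during virus infection, and tonic signalling keeps many of these genes at a low level in resting cells.

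The libraries held between 27465745 and 39572173 reads in the table's genes, and values are given as scaled CPM, reads relative to a scaled library size as in CPM. The 11 alveolar macrophage markers were all detected and summed to 34530 to 48890 scaled CPM in the d35 libraries, 33630 to 38190 in the d15 libraries and 24570 to 32070 in the naive libraries. Chil3, a secreted chitinase-like protein, made up most of these sums, with means of 33501 in d35, 28404 in d15 and 22080 in naive libraries. Of the 11, 3 were higher and 1 lower in d35 than in naive libraries by limma, against 9.86% and 6.32% of all genes tested. Their median log2 fold change was 0.07. Of 15 markers of monocytes and interstitial macrophages, 9 were higher in d35 than in naive libraries by limma, and the sum of all 15 was 3360, 2210 and 2755 in d35 replicates 1, 2 and 3, 1631 and 1753 in the d15 libraries and 1606, 2004 and 1716 in the naive libraries. Fn1, encoding fibronectin, was the highest of that list, C1qb, a complement gene of interstitial macrophages, ranged from 43.8 to 156 in d35 libraries against 0.454 to 1.77 in naive libraries, and Ly6c2, a marker of classical monocytes, averaged 0.662 in d35 libraries against 1.04 in naive libraries. C1qb and Ly6c2 were singled out after their values were seen. Of the other lists, 8 of 13 endothelial and 3 of 5 B cell markers were lower in d35 than in naive libraries. Among 12 epithelial and tumor markers, 5 were higher and 1 lower in d35 than in naive libraries. They summed to 1238 to 1349 scaled CPM in d35 libraries, 1246 to 1362 in d15 libraries and 1445 to 1447 in naive libraries. Krt19 made up most of these sums, with means of 897 in d35, 940 in d15 and 1049 in naive libraries. Of the neutrophil markers 1 of 4 was higher and of the fibroblast markers 1 of 6 lower, and none of the T and NK cell or conventional dendritic cell markers was called in d35 over naive by limma (1 and 0 at an unadjusted p under 0.05, 0 by edgeR, 1 and 0 by DESeq2). In bulk samples, a change in the share of cells of a type and a change in RNA per cell cannot be told apart.

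Promoter windows from RefSeq (build GRCm38.p6, 250 bases before to 50 after the start of a gene) were given for 7 of the 9 genes, all but Usp18 and Zbp1. The core of the ISRE was searched as GAAANNGAAA or TTTCNNTTTC, which covers both strands. It was present in 5 of the 7 windows, against 3.44% of all 32851 windows of the same length. The 5 stretches below are shown because they hold these matches, in 3 effector genes, a transcription factor and a sensor, with capitals marking the ISRE core letters.
Isg15, chr4:156200819-156201068, minus strand: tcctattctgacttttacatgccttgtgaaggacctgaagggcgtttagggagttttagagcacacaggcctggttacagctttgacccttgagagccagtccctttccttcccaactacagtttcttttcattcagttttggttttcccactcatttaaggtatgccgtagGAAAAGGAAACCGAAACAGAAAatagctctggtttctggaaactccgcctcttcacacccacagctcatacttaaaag
Oas1a, chr5:120907526-120907575, minus strand: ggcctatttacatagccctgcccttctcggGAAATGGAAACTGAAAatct
Bst2, chr8:71537557-71537632, minus strand: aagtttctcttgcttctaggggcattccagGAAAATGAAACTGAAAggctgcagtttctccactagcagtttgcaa
Stat2, chr10:128270248-128270315, plus strand: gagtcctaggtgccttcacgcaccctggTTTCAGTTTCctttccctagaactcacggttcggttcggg
Ifih1, chr2:62646206-62646233, minus strand: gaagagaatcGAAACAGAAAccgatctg
In Isg15, 3 overlapping matches ran from base -78 to base -57, with the start base counted as 0. In Oas1a and Bst2, 2 overlapping matches each ran from -20 to -5 and from -130 to -115. Stat2 held 1 match at -222 to -213, and the match of Ifih1 lay past the start, at bases 32 to 41. The gamma-activated sequence (GAS), searched as TTCNNNGAA, which reads the same on both strands, was present in Oas1a at -98 to -90 and in Bst2 at -136 to -128, where it overlapped the ISRE core, that is in 2 of 7 windows against 8.3% of all windows. The windows of Irf7 and Oasl2 held neither motif. In the wider gene lists described below, the share of windows with the ISRE core ran from 0% (receptor and kinases) to 66.67% (interferon gamma list). That with the GAS ran from 0% (ISG15 conjugation) to 50% (receptor and kinases). A match is a description of letters, not evidence of a bound site.

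**Figure D1:**
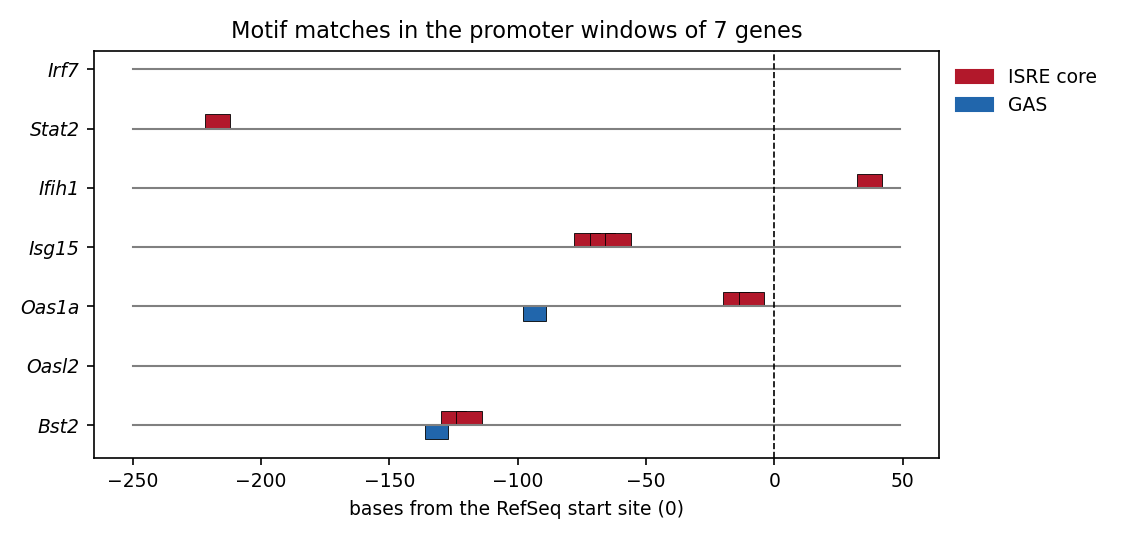
Positions of motif letters in the promoter windows of 7 genes, with distance from the RefSeq start base on the x axis in bases and 1 line per gene. Red boxes mark the ISRE core and blue boxes the GAS, and 5 of the 7 lines carry at least 1 red box.

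In d35 macrophages 6 of the 9 genes were higher than in naive macrophages: the effectors Oasl2, Oas1a and Bst2, the sensor Zbp1, and the ubiquitin-like modifier Isg15 with Usp18, the protease that removes it. The increases ran from 0.61 for Bst2 to 1.64 for Oasl2 on the log2(value + 1) scale. Ifih1, Stat2 and Irf7 did not pass the test in this comparison. All 9 are protein-coding genes, and the coordinates below are whole gene spans on build GRCm38. Of all 11273 genes tested, 16.2% were called in either direction, 9.86% as higher and 6.32% as lower. The median log2 fold change of the 9 genes was 0.80, against -0.002 over all genes tested, and in 6 of the 9 genes all d35 libraries lay above all naive libraries, against 20.7% of tested genes, and in none did they all lie below, against 15.9%. The 9 genes were chosen with earlier results of these data known, so these shares are a description and not a test of the set. The monocyte and interstitial macrophage markers that were higher in the same libraries are given above, and their part in the increases was not tested.

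Irf7, the transcription factor known as a main regulator of type I interferon genes (chr7:141262706-141266481, minus strand), had 17.7, 9.69 and 8.62 scaled CPM in the d35 libraries, 8.20 and 4.72 in the d15 libraries and 5.53, 8.68 and 9.70 in the naive libraries. Its d35 and naive ranges overlapped, and only d35 replicate 1 stood above every naive library. The log2 fold change of d35 over naive was 0.50 with a standard error (SE) of 0.28 (limma adjusted p = 0.236, 95% interval -0.11 to 1.12). Irf7 overlaps Phrf1 on the other strand and the use of strand in counting is not given in the sources used here, so its reads are uncertain in that respect. Phrf1 itself changed by -0.11 between d35 and naive libraries (adjusted p = 0.517).

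Stat2, a subunit of the ISRE-binding complex (chr10:128270559-128292849, plus strand), had 81.1, 75.2 and 72.1 scaled CPM in the d35 libraries, 74.4 and 55.2 in the d15 libraries and 76.1, 64.6 and 68.2 in the naive libraries. All 3 groups overlapped. Its d35 over naive log2 fold change was 0.13 (SE 0.11, limma adjusted p = 0.454), with an interval of -0.12 to 0.37.

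Ifih1, the cytosolic sensor of long double-stranded RNA (chr2:62595798-62646255, minus strand), had 43.7, 44.2 and 38.4 scaled CPM in the d35 libraries, 52.0 and 54.1 in the d15 libraries and 40.1, 37.0 and 37.3 in the naive libraries. Both d15 libraries were above every other library, while the d35 and naive ranges overlapped. The d35 over naive log2 fold change was 0.14 (SE 0.08, limma adjusted p = 0.277), with an interval of -0.05 to 0.32. Zbp1, which senses Z-form nucleic acids and can start necroptosis (chr2:173206612-173218923, minus strand), had 27.3, 18.5 and 22.8 scaled CPM in the d35 libraries, 18.0 and 17.2 in the d15 libraries and 11.0, 14.0 and 12.9 in the naive libraries. Every d35 and d15 library lay above every naive one. Zbp1 rose by 0.80 (SE 0.14, limma adjusted p = 0.00703) in d35 libraries.

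Isg15, the ubiquitin-like protein attached to other proteins after interferon exposure (chr4:156199424-156200818, minus strand), had 4.88, 2.57 and 3.46 scaled CPM in the d35 libraries, 1.88 and 1.59 in the d15 libraries and 0.958, 1.91 and 1.96 in the naive libraries. Usp18, which removes ISG15 and also dampens signalling at the interferon receptor (chr6:121245906-121270917, plus strand), had 4.39, 3.21 and 2.26 scaled CPM in the d35 libraries, 0.766 and 0.561 in the d15 libraries and 0.925, 1.54 and 1.57 in the naive libraries. In both genes the d35 libraries lay above all others, at few reads: Isg15 had 28 to 140 and Usp18 had 18 to 126 reads per library. The log2 fold change of d35 over naive was 0.82 for Isg15 (SE 0.23, limma adjusted p = 0.0375) and 0.85 for Usp18 (SE 0.22, adjusted p = 0.0288). With edgeR on the recovered reads, which adds less to low values, it was 1.17 for Isg15 and 1.28 for Usp18. Usp18 also overlaps a noncoding gene, Gm44148, on the other strand. Both calls were lost when certain libraries were left out, with smaller fold changes without naive replicate 1 or d35 replicate 1 (0.63 and 0.64 for Isg15, 0.72 and 0.67 for Usp18) and fold changes at least as large as with all libraries in the other cases. Isg15 missed the threshold when naive replicate 1, 2 or 3 was left out (adjusted p = 0.116, 0.0747 and 0.058), when d15 replicate A or B was (0.0546 and 0.0542) and when d35 replicate 1 or 3 was (0.112 and 0.0862). Usp18 missed it when naive replicate 1, 2 or 3 (0.0931, 0.0697 and 0.0556) or d35 replicate 1 (0.0886) was left out. With no library of these groups left out, Isg15 also missed it in a limma model of only the d35 and naive libraries (0.0541). Both Isg15 and Usp18 missed it when same-numbered libraries were treated as pairs in limma, the replicate block (0.0883 and 0.0695).

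Oas1a, an oligoadenylate synthetase that activates RNase L on double-stranded RNA (chr5:120896256-120907521, minus strand), had 44.8, 33.0 and 32.1 scaled CPM in the d35 libraries, 26.7 and 19.8 in the d15 libraries and 15.8, 19.8 and 22.3 in the naive libraries. Oasl2, a member of the same family with ubiquitin-like domains (chr5:114896936-114912234, plus strand), had 20.9, 8.63 and 10.3 in the d35 libraries, 6.05 and 3.78 in the d15 libraries and 1.80, 3.94 and 4.68 in the naive libraries. Neither gene's d35 libraries overlapped those of another group, while the d15 and naive ranges of both overlapped. Oas1a rose by 0.89 (SE 0.17, limma adjusted p = 0.00776) and Oasl2 by 1.64 (SE 0.33, adjusted p = 0.0109) in d35 over naive libraries. How reads shared with near copies (Oas1g, Oasl1) were assigned is not given in the sources used here, so these levels are uncertain in that respect.

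Bst2, the tetherin that holds budding virions at the cell surface (chr8:71534255-71537456, minus strand), had 38.7, 29.0 and 34.5 scaled CPM in the d35 libraries, 27.4 and 26.9 in the d15 libraries and 19.7, 23.0 and 23.1 in the naive libraries. The 3 groups did not overlap, with d35 highest and naive lowest. Bst2 rose by 0.61 (SE 0.12, limma adjusted p = 0.00825) in d35 over naive libraries. Over the 11217 tested genes with a known length, log2 fold changes tended to fall with gene length. The correlation was -0.282 in d35 over naive and -0.339 in d15 over naive libraries. Isg15 (756 bases of exon) and Bst2 (903 bases) are the shortest of the genes described here. After a correction of each library for gene length the change of Bst2 was 0.28 with a limma adjusted p of 0.126. That of Isg15 was 0.47 with an adjusted p of 0.206. The cause of the length trend was not tested. Oas1a, Oasl2 and Zbp1 were called under all 18 other settings tried.

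**Figure D2:**
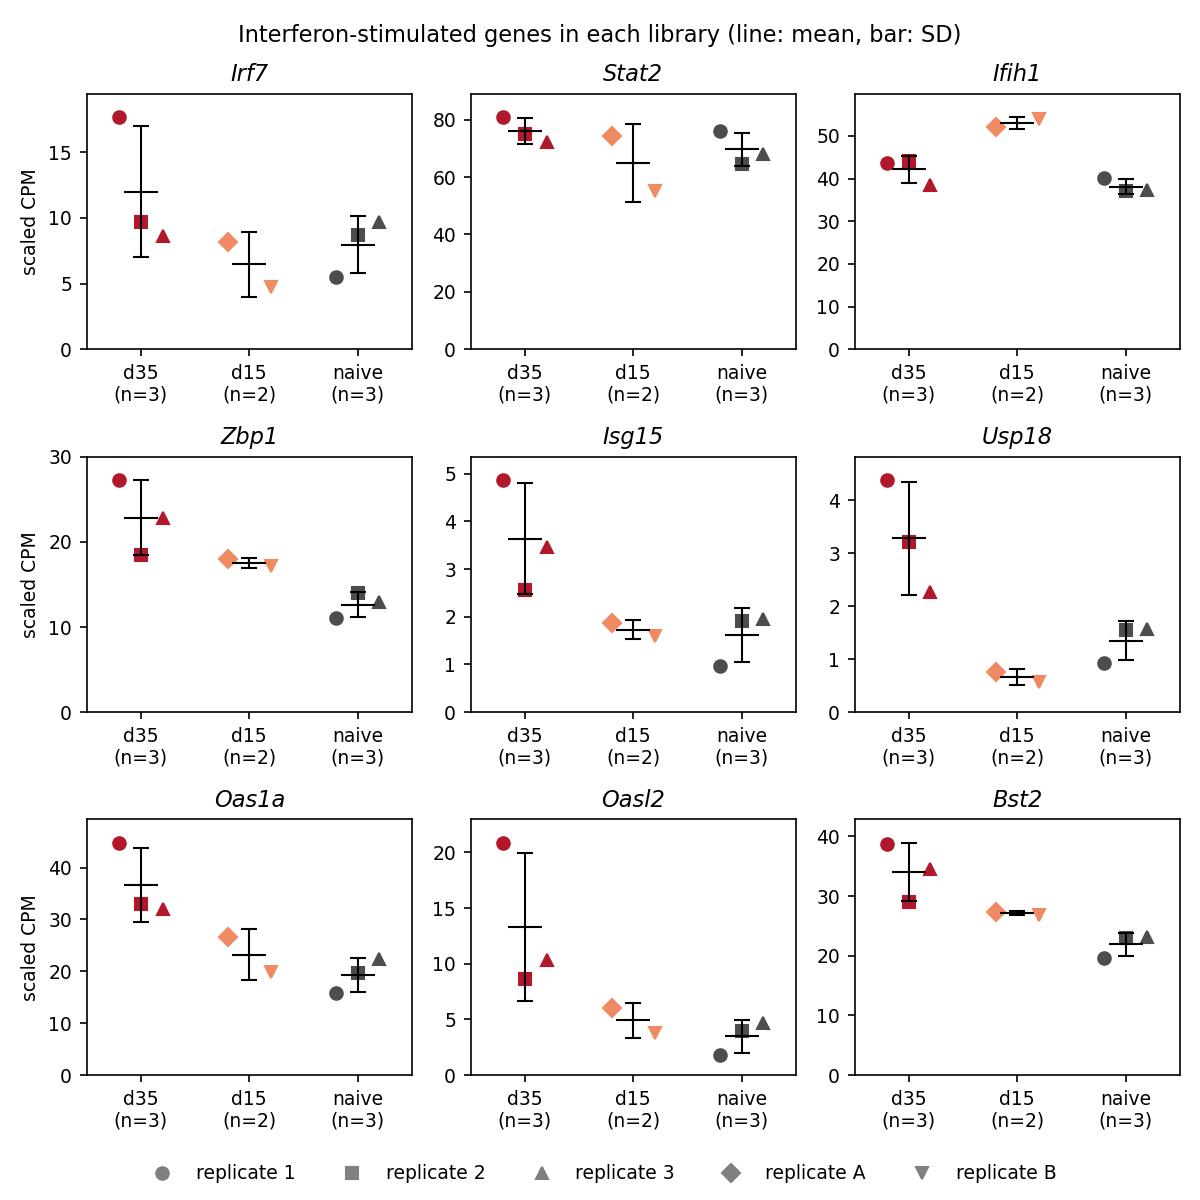
Scaled CPM of each of the 9 genes on the y axis, which starts at 0, by group on the x axis (d35 n = 3, d15 n = 2, naive n = 3), with 1 point per library, lines for means and bars for SD. The d35 points of Isg15, Usp18, Oas1a, Oasl2, Bst2 and Zbp1 lie above all naive points, and Ifih1 is highest at d15.

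At d15, 1 of the 9 genes passed the test against naive macrophages: Ifih1, which rose by 0.47 on the log2 scale (SE 0.09, limma adjusted p = 0.0266) and averaged 53.0 ± 1.47 scaled CPM in d15 libraries (SD, n = 2) and 38.1 ± 1.70 in naive libraries (SD, n = 3). Of all genes tested, 4.37% were called in this comparison, 2.37% as higher and 2% as lower. Bst2, Zbp1 and Ifih1 had every d15 library above every naive one and Usp18 had both below, against 25.9% and 22.3% of tested genes. The changes that did not pass were 0.30 for Bst2 (adjusted p = 0.173), 0.45 for Zbp1 (0.109), 0.44 for Oasl2 (0.49), 0.25 for Oas1a (0.412), 0.09 for Isg15 (0.863), -0.11 for Stat2 (0.599), -0.28 for Irf7 (0.617) and -0.49 for Usp18 (0.241, interval -1.04 to 0.06). Leaving out naive replicate 2 or 3 ended the Ifih1 call (adjusted p = 0.108 and 0.0717), as did leaving out d15 replicate A or B (0.115 and 0.218), where the lone d15 library is assumed to vary like the other groups. The Ifih1 fold change was 0.45 in each of the cases without a naive replicate and 0.49 and 0.44 in those without a d15 replicate. In the authors' deposited table of d15 over naive, Ifih1 had a log2 fold change of 0.455 with an FDR of 0.238, and none of the 9 genes passed an FDR of 0.05, as 389 of its 10778 genes did.

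Between the tumor times, Usp18 passed the test, with 3.29 ± 1.07 scaled CPM in d35 libraries (SD, n = 3) and 0.664 ± 0.145 in d15 libraries (SD, n = 2), a log2 fold change of 1.34 (SE 0.25, limma adjusted p = 0.0104). Of all genes tested, 7.39% were called in this comparison, 4.59% as higher and 2.8% as lower. In 7 of the 9 genes, all but Ifih1 and Stat2, each d35 library was above both d15 libraries, against 19% of tested genes, and in Ifih1 each was below both, against 19.5%. The differences that did not pass were 1.20 for Oasl2 (adjusted p = 0.0774), 0.78 for Irf7 (0.167), 0.73 for Isg15 (0.118), 0.63 for Oas1a (0.0655), 0.34 for Zbp1 (0.242), 0.31 for Bst2 (0.188), 0.24 for Stat2 (0.286) and -0.33 for Ifih1 (0.0607). With either d15 replicate left out, A or B, the Usp18 fold change was 1.43 and 1.25 and missed the threshold (adjusted p = 0.0537 and 0.108), where the lone d15 library is assumed to vary like the other groups, and without d35 replicate 2 Oasl2 also passed (0.0397). DESeq2 on the recovered reads called 3 of the 9 genes higher (Usp18, Oas1a and Oasl2) and 1 lower (Ifih1), among 1368 genes called in all. The comparisons of d35 with naive and of d15 with naive share the naive libraries, and those with d15 share the d15 libraries.

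**Figure D3:**
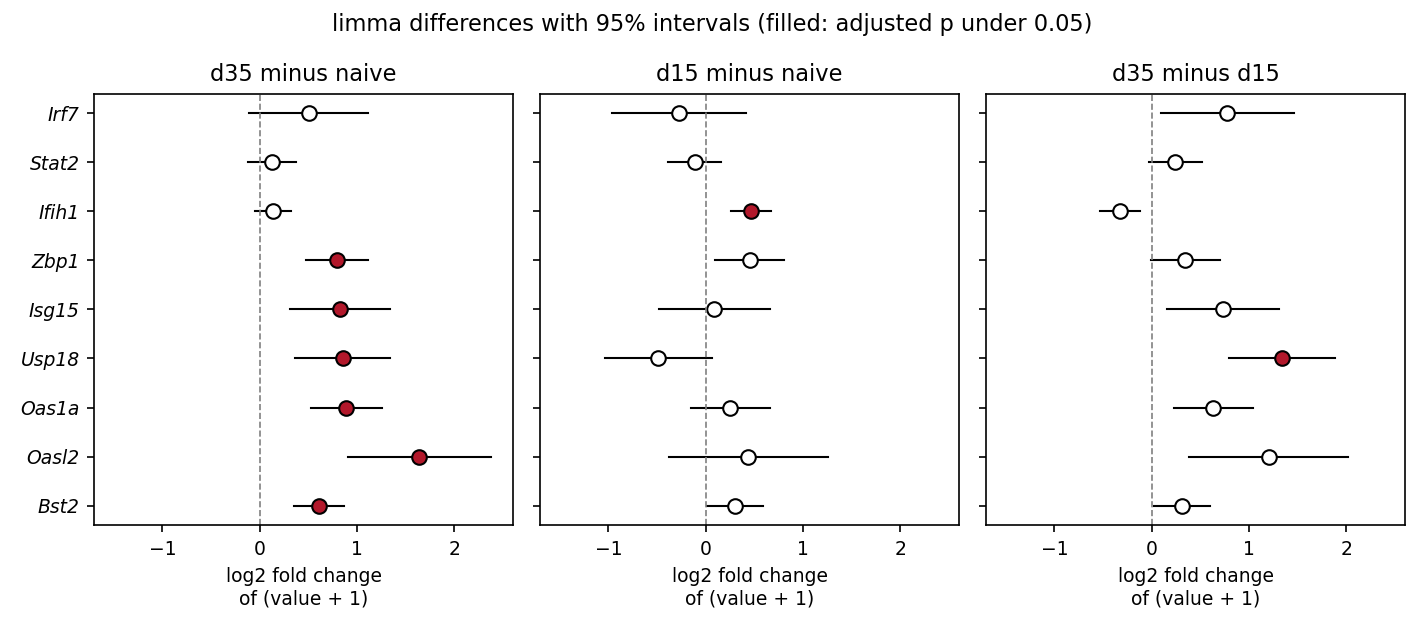
Log2 fold changes of the 9 genes on the x axis with 95% intervals from limma, for d35 minus naive, d15 minus naive and d35 minus d15. Filled points have an adjusted p under 0.05, which are 6, 1 and 1 genes in the 3 comparisons.

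Levels per kilobase of exon give only a rough order of the genes, since the length joins all annotated exons of a gene. For Irf7 these exons cover the whole gene span (3776 bases), so its place is uncertain. The length trend given above was not corrected here. Bst2 was highest in every group, with 37.7 in d35, 30.0 in d15 and 24.3 in naive libraries, on means of scaled CPM per kilobase. In naive libraries Stat2 (11.8) and Oas1a (10.2) came next and their ranges overlapped, followed by Ifih1 (4.67) and Zbp1 (3.58). Isg15 (2.13) and Irf7 (2.11) overlapped, as did Oasl2 (0.545) and Usp18 (0.483) at the bottom. In d15 libraries the order was the same except that Oas1a (12.3) and Stat2 (10.9), which overlapped, changed places. In d35 libraries Oas1a (19.4) stood above Stat2 (12.8) without overlap, while each of Zbp1 (6.47), Ifih1 (5.16), Isg15 (4.81), Irf7 (3.18), Oasl2 (2.08) and Usp18 (1.18) overlapped the next. Exon lengths ran from 756 bases for Isg15 to 8165 bases for Ifih1.

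The genes differed in how far replicates lay apart. The SD of log2 values of Oasl2 was 0.63 in d35, 0.40 in d15 and 0.54 in naive libraries, larger than in 98.2%, 96.0% and 98.4% of tested genes. Irf7 had 0.52, 0.49 and 0.38, larger than in 96.7%, 97.8% and 95.2%, while the medians over all genes were 0.14, 0.09 and 0.11. Ifih1 had 0.11, 0.04 and 0.06. Single libraries stood out in several genes at once. The d35 replicate 1 was the highest d35 library in 8 of 9 genes, all but Ifih1, against 33.6% of tested genes, and in these 8 genes it was also above every d15 and naive library. Naive replicate 1 was the lowest naive library in 7 of 9 genes, against 37.3% of tested genes. In 8 of 9 genes d15 replicate A was above B, against 50.1% of tested genes. On the centred log2 scale the mean of the 9 genes was 0.74, 0.23 and 0.26 in d35 replicates 1, 2 and 3, -0.04 and -0.31 in d15 replicates A and B, and -0.53, -0.21 and -0.15 in naive replicates 1, 2 and 3. The summed alveolar macrophage markers, mostly Chil3 as given above, were highest in d35 replicate 1 as well, at 48890. The summed monocyte and interstitial macrophage markers were also highest in d35 replicate 1 and lowest in naive replicate 1, and their part in these differences was not tested. Without d35 replicate 1, Oasl2, Oas1a, Zbp1 and Bst2 were still called over naive, with log2 fold changes of 1.28, 0.74, 0.66 and 0.51.

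**Figure D4:**
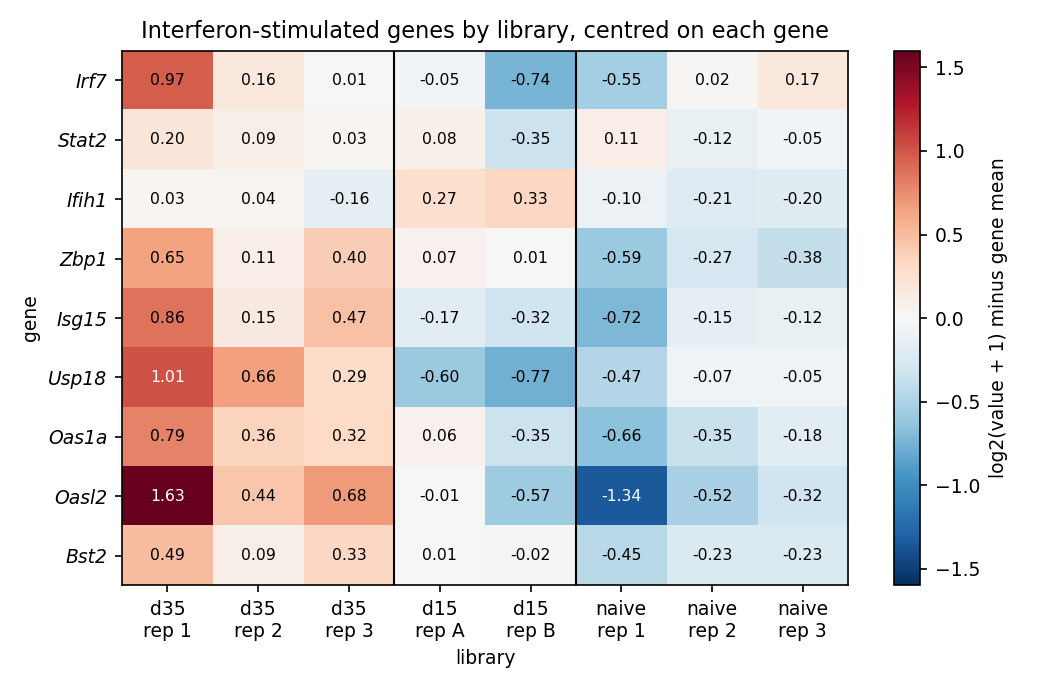
Log2(value + 1) of each gene minus its mean over the 8 libraries (colour scale and printed values), with genes down the page and libraries grouped as d35, d15 and naive. Oasl2 runs from 1.63 in d35 replicate 1 to -1.34 in naive replicate 1, and Ifih1 is highest in the d15 libraries.

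The correlation of each gene with the mean of the other 8 over the 8 libraries, given as a description since these libraries share groups, was 0.99 for Oasl2, 0.98 for Oas1a, 0.97 for Isg15, 0.91 for Bst2, 0.88 for Zbp1, 0.83 for Irf7 and 0.81 for Usp18, lower for Stat2 at 0.50 and -0.05 for Ifih1. Outside the set, the 5 genes of at least 3 in mean log2 value whose pattern over the 8 libraries was most like the mean of the 9 were Ctsa, Arpc4, Ube2l3, Ctsz and Ctsl, with correlations of 0.98, 0.98, 0.98, 0.97 and 0.97. Isg15 (1.69), Usp18 (1.42) and Oasl2 (2.82) themselves lie below this cut, so interferon genes of such low levels could not be among the 5. Ctsz and Ctsl, lysosomal proteases, averaged 1524 and 443 scaled CPM in d35 libraries, 1058 and 276 in d15 libraries and 1040 and 276 in naive libraries, with log2 fold changes of d35 over naive of 0.55 and 0.68. Arpc4, a subunit of the actin-branching Arp complex, and Ube2l3, a ubiquitin-conjugating enzyme, differed less, by 0.18 and 0.19, as did Ctsa, another lysosomal protease, by 0.20.

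Among the other genes of the pathway, grouped by role in lists of 147 genes, 112 were tested. Of these, 27 rose and 0 fell in d35 over naive libraries by limma (24.1% rose, against 9.86% of all genes tested). At an unadjusted p under 0.05, 45 were higher and 3 lower, edgeR called 28 higher and 0 lower, DESeq2 called 34 higher and 0 lower, and with scaling by the library total, chosen after seeing the data, 24 were called higher and 2 lower. At d15, 3 rose and 2 fell against naive by limma (2.7% and 1.8%, against 2.37% and 2% of all genes tested). There 11 were higher and 8 lower at an unadjusted p under 0.05, edgeR called 3 higher and 1 lower, DESeq2 called 4 and 6, the model of only the compared groups called 7 and 3, and none was called when d15 replicate B was left out, which leaves 1 d15 library. In d35 against d15, 18 rose and 0 fell by limma (16.1% rose, against 4.59% of all genes tested called higher and 2.8% lower). There 38 were higher and 4 lower at an unadjusted p under 0.05, edgeR called 18 and 0, and DESeq2 called 25 and 1. Over all 11273 genes, in either direction, edgeR called 1760 in d35 over naive, 417 in d15 over naive and 827 in d35 over d15. DESeq2 called 2412, 1451 and 1368 in the same order. Scaling by the library total called 2308 in d35 over naive, and the model of only the compared groups 1179 in d15 over naive. The share of all genes at an unadjusted p under 0.05 was not computed. The 18 higher in d35 over d15 became 9 in the model of only the compared groups, which called 421 of all genes. They became 10 and 29 when d35 replicate 1 or d35 replicate 2 was left out. Fewer were called when either d15 replicate was left out, which leaves 1 d15 library. The median log2 fold change of the 112 genes was 0.22 in d35 over naive and -0.01 in d15 over naive libraries. None of the 19 ligand genes counted in the 147 was among the 12701 deposited genes, from which low genes had been removed, so none could be tested. None of the 4 receptor and kinase genes passed in d35 over naive (0 at an unadjusted p under 0.05, and 0 by edgeR and DESeq2), and Jak1, the most abundant, had 364 ± 25.2 scaled CPM in d35 libraries and 368 ± 10.7 in naive libraries (SD, n = 3 each, limma adjusted p = 0.883). Of the 3 ISG15 conjugation genes none passed (2 at an unadjusted p under 0.05, 0 by edgeR and DESeq2), and Uba7, the activating enzyme, had 58.3 ± 5.74 in d35 libraries and 69.3 ± 7.06 in naive libraries (adjusted p = 0.121). The count of 27 was 18, 17 and 19 when naive replicate 1, naive replicate 2 or d35 replicate 3 was left out, and 37 when d35 replicate 2 was.

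Of the other transcription factors of the pathway, 4 of 8 rose in d35 over naive libraries (2 of 8 when naive replicate 2 was left out). That is 50%, against 9.86% of all genes tested called higher in this comparison. Irf5 averaged 154 ± 10.8 scaled CPM in d35 libraries and 96.5 ± 13.4 in naive libraries (SD, n = 3 each, log2 fold change 0.68, limma adjusted p = 0.00233). Irf1, a factor shared with interferon gamma, averaged 98.4 ± 18.6 in d35 libraries and 58.3 ± 4.55 in naive libraries (0.73, adjusted p = 0.00569), and Irf9, the DNA-binding partner of STAT2, averaged 48.9 ± 7.90 in d35 libraries and 32.7 ± 1.33 in naive libraries (0.56, adjusted p = 0.0135). These 3 factors had d35 libraries above all naive ones, unlike Stat2 and Irf7. Of the nucleic acid sensing genes, 5 of 15 rose (33.3%, against the same 9.86%). Ikbke, a kinase of IRF factors, averaged 20.2 ± 8.80 in d35 and 4.47 ± 0.61 in naive libraries (1.87, adjusted p = 0.00153), and Ripk3, the necroptosis kinase that partners ZBP1, averaged 30.8 ± 3.95 in d35 and 16.9 ± 2.03 in naive libraries (0.83, adjusted p = 0.0025). Ticam1, the adaptor of TLR3, averaged 13.6 ± 0.56 in d35 and 8.42 ± 0.27 in naive libraries (0.63, adjusted p = 0.00559).

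Of the other antiviral effectors, 14 of 69 tested rose (20.3%, against 9.86% of all genes tested) and 0 fell in d35 over naive libraries by limma. Here edgeR called 15 and DESeq2 21, and the 14 became 8 and 23 when naive replicate 2 or d35 replicate 2 was left out. Ifi27l2a averaged 10.8 ± 2.15 scaled CPM in d35 and 3.24 ± 0.47 in naive libraries (SD, n = 3 each, log2 fold change 1.47, limma adjusted p = 0.00061). Ly6e, a surface protein induced by interferon, averaged 544 ± 59.6 in d35 and 358 ± 20.3 in naive libraries (0.60, adjusted p = 0.00224), and Phf11b averaged 6.18 ± 2.29 in d35 and 1.30 ± 0.44 in naive libraries (1.61, adjusted p = 0.00293). The widely used markers Ifit1, Ifit3 and Rsad2, singled out after their values were seen, did not pass, with adjusted p of 0.418, 0.202 and 0.427 and log2 fold changes of 0.46, 0.71 and 0.64. Oas1g, a near copy of Oas1a, averaged 3.38 ± 2.48 in d35 and 0.602 ± 0.309 in naive libraries (1.32, adjusted p = 0.0303). It was the 1 of 6 other tested genes of the OAS and RNase L list to pass (16.7%, against 9.86% of all genes tested). Oas1g did not pass when any naive replicate or d35 replicate 1 was left out. The feedback inhibitors Socs1, Socs3 and Ptpn1 rose, 3 of 7 (42.9%, against 9.86% of all genes tested). Socs3 averaged 98.9 ± 48.9 in d35 and 29.3 ± 10.5 in naive libraries (1.64, adjusted p = 0.0235). The count of 3 was 0 when naive replicate 1 or d35 replicate 3 was left out, 1 when naive replicate 3 or d35 replicate 1 was, and 2 when naive replicate 2 was. At d15, Ifi204 and Slfn2 rose over naive, by 1.18 (adjusted p = 0.00278) and 0.88 (0.00852), while Trim25, an E3 ligase that activates RIG-I, fell by 0.57 (adjusted p = 0.00583). Ptpn1 also rose at d15, by 0.94 (limma adjusted p = 0.00637), and averaged 590 in d15, 430 in d35 and 306 in naive libraries. Ptpn6, another feedback inhibitor, fell by 0.38 (0.0476). It was not called by edgeR, without the filter on low values, or when any naive replicate was left out.

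Genes known mostly as interferon gamma targets, together with the receptor genes Ifngr1 and Ifngr2, formed a list for contrast, in which 14 of 18 rose in d35 over naive libraries (77.8%) and 3 of 18 at d15 over naive (16.7%), with median log2 fold changes of 0.90 and 0.36. Of all genes tested, 9.86% and 2.37% were called higher in these comparisons. The 3 at d15 became 0 when naive replicate 2 or d15 replicate B was left out, 1 when naive replicate 3 or d15 replicate A was, 5 when d35 replicate 3 was and 6 when d35 replicate 2 was. Gbp2, a guanylate-binding protein, averaged 104 ± 26.0 scaled CPM in d35 and 38.9 ± 2.21 in naive libraries (SD, n = 3 each, 1.36, limma adjusted p = 0.00061). Cxcl9, a chemokine for T cells, averaged 26.2 ± 14.0 in d35 libraries and 10.3 ± 0.63 in d15 libraries (SD, n = 2), against 2.53 ± 0.59 in naive libraries, and passed against naive at both times, with log2 fold changes of 2.79 at d35 (adjusted p = 0.000875) and 1.69 at d15 (0.0397). Many genes answer both kinds of interferon, and the difference between these lists was not tested. Markers of plasmacytoid dendritic cells, the strongest producers of type I interferon, summed to 40.9 to 58.3 scaled CPM in d35 libraries and 57.0 to 65.4 in naive libraries, with 0 of 4 tested genes called (1 at an unadjusted p under 0.05, 0 by edgeR and DESeq2) and Siglech, a defining surface marker singled out after its values were seen, at 0.384 in d35 and 0.214 in naive libraries on average. Of the 11 genes on that list, Runx2 was highest and made up most of these sums, with means of 31.1 in d35 and 38.8 in naive libraries.

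**Figure D5:**
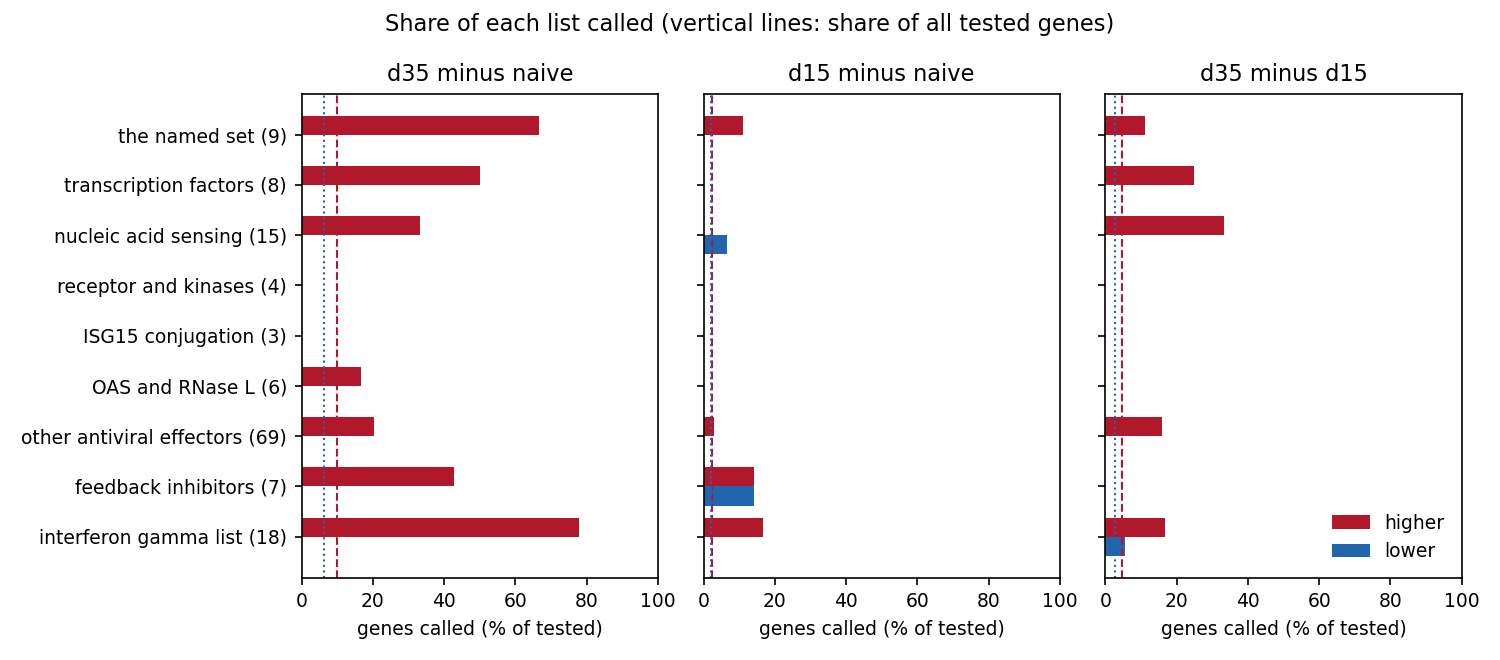
Share of tested genes in each list that were called higher (red) or lower (blue) at a limma adjusted p under 0.05, on an x axis from 0 to 100%, with the number tested in brackets and dashed and dotted lines for the share of all tested genes called higher and lower. In d35 minus naive the 9 genes reach 66.7% and the interferon gamma list 77.8%, against 9.86% of all genes. The genes and lists were chosen with earlier results of these data known.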

How the data were processed

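RNA from sorted alveolar macrophages was sequenced in 8 libraries (3 d35, 2 d15, 3 naive). The submitters' processing notes name STAR 2.5, build mm10 and edgeR without a version, while the counting program, its annotation and its use of strand were not stated in any source here. The authors' deposited expression table holds a signal, called scaled CPM here, equal to (reads + 0.5) over (scaled library size + 1) on the CPM scale. All values (100%) came out as whole reads within 0.001. No gene had fewer than 41 reads summed over the libraries, so low genes had been removed before deposit. The authors' deposited comparison table lists, per the file headers, a p-value, a log2 fold change and a likelihood-ratio score per gene for d15 over naive. The d15 columns of the expression table carry numbers that differ from the sample titles, so they were assigned to the group and called A and B. No column of the tables lacked a sample (0 columns).

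limma 3.58.1 (R 4.3.3) was the main test, with its intensity trend, on log2(value + 1) of the 11273 genes that reached 1 in 2 or more libraries, with group as the only term and all libraries in 1 model. P-values were adjusted by Benjamini-Hochberg over all genes tested and called at 0.05. Log2 fold changes on this scale understate those of low genes. edgeR 4.0.16 and DESeq2 1.42.0 on the recovered reads, other filters, scalings, a length correction and leaving out each library were alternatives. The limma step was tested on simulated data. Coordinates and exon lengths come from GENCODE vM21 on GRCm38. Named were all 9 genes and the 5 genes most alike. From the lists, names were drawn from up to 3 called genes by adjusted p or else the most abundant gene, and from the top markers of cell types. Not every such gene or top marker is named. The genes and lists were chosen with earlier results of these data known. Same-numbered naive and d35 libraries did not deviate together in every pair, so numbers were not taken as pairs.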

Additional observations from a re-analysis of the deposited data

Results flagged for a closer look

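Usp18 was singled out because its changes over naive differed between the tumor times. The difference of d35 minus d15 was 1.338 on the log2(value + 1) scale, tested directly in limma (adjusted p = 0.0104), with all 3 d35 libraries above both d15 libraries. With d15 replicate A or B left out, the difference was 1.43 and 1.25 (adjusted p = 0.0537 and 0.108), and the lone d15 library is then assumed to vary like the other groups.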

How the results depend on the processing

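Across the 18 other settings, 4 to 6 of the 9 genes were called in d35 over naive libraries and every change stayed positive. Leaving out each library gave 4 to 6 genes for d35 over naive, 0 to 1 for d15 over naive and 0 to 2 for d35 over d15. For d35 over d15, the stricter filter of 5 left 0 because it removed Usp18, DESeq2 called 4, and 2 were called both with the length correction and with scaling by the library total, a setting chosen after seeing the data; the cause was not tested. The direction at d15 over naive turned for Isg15 with the length correction (-0.228) and, leaving out each library, ranged from -0.106 (without naive replicate 1) to 0.193 for Isg15, from -0.327 to 0.097 (without d15 replicate B) for Stat2 and from -0.619 to 0.068 (without d15 replicate B) for Irf7, none of them called under any of these settings. Scaling by the library total moved the median of all genes by -0.105 in d35 over naive, and calls were then 28.7% higher against 61% as deposited (30.3% against 54.2% for d15 over naive, 49.5% against 62.1% for d35 over d15). It still called the 6 genes, with a median of 0.69. TMM scaling gave the deposited scaling's values. The count of all genes called ranged from 12 (without d15 replicate B) to 1451 (DESeq2) around 493 for d15 over naive, from 635 (without naive replicate 2) to 2412 (DESeq2) around 1824 for d35 over naive, and from 193 (without d15 replicate B) to 1368 (DESeq2) around 833 for d35 over d15. Same-numbered naive and d35 libraries correlated at -0.007, -0.046 and 0.147 in their deviations from group means and not every library matched its own number best; with the replicate block 4 of the 9 genes and 1460 of all genes were called in d35 over naive. Isg15 and Usp18 had 18 to 140 reads per library, and the part of counting error in their spread was not tested.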
